A study of Mus musculus with 12 samples.

Results

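The genes of 10 cytosolic sensors of foreign or misplaced nucleic acid, with their adaptors, effectors and brakes, were followed on 12 mouse expression arrays. The 10 genes were Ddx58, Ifih1, Dhx58, Mavs, Mb21d1, Tmem173, Trex1, Zbp1, Eif2ak2 and Adar, taken by name from the array's RefSeq accessions, with later symbols counted (Rigi for Ddx58, Cgas for Mb21d1, Sting1 for Tmem173). All 10 were among the 13168 genes tested, through 16 probes, and each was well above background on all 12 arrays and saturated on none.

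The cells were labelled as peritoneal macrophages from C57BL/6 mice marked WT (wild type), and they were plated, washed free of non-adherent cells after 2 h and kept overnight without serum. Each group held 4 samples, described as biological replicates. The control group received vehicle and came from mice labelled as 8 weeks old, 2 female and 2 male. The LPS_IFNg group received bacterial lipopolysaccharide (LPS) at 100 ng/ml with interferon gamma (IFNγ) at 20 ng/ml, and the LPS_IFNg_emodin group received both with 50 μM emodin, an anthraquinone from rhubarb and other plants. Both stimulated groups came from mice labelled as 9-week-old females, and treatment lasted 20 h in the sample descriptions. No group received emodin alone, so every emodin value below was read in stimulated cells. Values are log2 signals minus each array's 75th percentile, called normalised log2 signal below, and a difference between groups was called at an adjusted p under 0.05.

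RIG-I (Ddx58) and MDA5 (Ifih1) are helicases that bind viral double-stranded RNA and signal through MAVS on mitochondria, and LGP2 (Dhx58) modulates them. cGAS (Mb21d1) binds DNA in the cytosol and makes the cyclic dinucleotide that activates STING (Tmem173), while the exonuclease TREX1 removes such DNA. PKR (Eif2ak2) halts translation and ZBP1 triggers cell death on double-stranded or Z-form nucleic acid, which the RNA editor ADAR1 (Adar) keeps from forming on the cell's own transcripts. In macrophages most of these genes are themselves induced by interferons, through dedicated transcription factors.

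The deposited promoters of those genes are shown for the letters that such factors read. RefSeq promoter sequences of build GRCm38.p6, from 250 bases before to 50 bases after each transcript start, were held for 7 of the 10 genes. The pattern GAAA, any 2 bases and GAAA again, the core of the interferon-stimulated response element, was searched on both strands with overlaps allowed, and it lay in 3.44% of all 32851 promoters of that length. Counted by gene, 3.99% had it in at least 1 promoter. It was present in Ddx58, Ifih1 and Eif2ak2, shown here 5′ to 3′ on each gene's own strand, the minus strand, with the match in capitals (for Ddx58 the match is on the opposite strand).
Ddx58, chr4:40239804-40239833: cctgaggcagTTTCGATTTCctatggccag
Ifih1, chr2:62646206-62646233: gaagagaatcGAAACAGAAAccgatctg
Eif2ak2, chr17:78882535-78882564: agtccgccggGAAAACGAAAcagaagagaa
The matches began 3, 33 and 19 bases into the transcript, counting its first base as 1. No match was in the windows of Mavs, Mb21d1, Adar (3 starts) or Trex1 (2 starts). The palindrome TTCNNNGAA, the core of the gamma-activated site, lay in 8.30% of all promoters and, counted by gene, in 9.55% of genes. Of the genes here, 2 had it, Eif2ak2 and Adar (plus strand, 1 of its 3 starts).
Eif2ak2, chr17:78882732-78882760: ctgcagagctTTCCCAGAAtggaagccag
Adar, chr3:89730730-89730758: gggaagccttTTCAAGGAAacgaaagtga

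LPS plus IFNγ raised 9 of the 10 genes and lowered 1, Mavs, and the 4 arrays of each group did not overlap for any of them. These counts stand against a large background: 69.0% of all genes tested were called in this comparison, 34.1% upward and 34.9% downward, and 64.4% did not overlap. The 10 genes had a median log2 difference of 3.11, where the median of all genes tested was -0.03. Folds among the 9 ran from 4.14 for Adar to 33.1 for Zbp1. These differences are relative to each array's 75th percentile, and several do not hold relative to the RNA spike-ins added before labelling. Those were 2.09 brighter on the log2 scale on LPS_IFNg than on control arrays over all 10 spike-in probes, and 2.60 brighter over the 7 well above background on all arrays. Scaled to the first or the second set, 589 or 412 of all genes were up and 12041 or 12391 down, in place of 4486 and 4599, and 6 or 5 of the 10 genes were called up. Mb21d1 (-0.05 and -0.56) and Adar (-0.07 and -0.58) then turned, Tmem173 did not pass (0.25 and -0.26), and Ddx58 passed at 0.91 but not at 0.40. Zbp1 (2.93 and 2.42), Trex1 (1.85 and 1.34), Ifih1 (1.59 and 1.08), Dhx58 (1.11 and 0.60) and Eif2ak2 (1.08 and 0.57) were up under both. All 4 control arrays shared a slide and scan that held no stimulated array, so slide, scan, labelled age and stimulation cannot be told apart here. The same amount of total RNA, 200 ng, was labelled for each array, so spike-in scaling gives signal per RNA labelled and not per cell. In these bulk samples fewer cells of a type cannot be told apart from less RNA per cell.

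By percentile scaling the 10 genes went both ways with emodin, as did all genes tested. Against LPS_IFNg, 5 fell (Ddx58, Ifih1, Dhx58, Tmem173 and Eif2ak2), 3 rose (Mb21d1, Adar and Mavs) and 2 did not pass (Zbp1 and Trex1). Of all genes tested, 72.0% were called in this comparison, 36.1% upward and 36.0% downward, and 67.5% did not overlap, against 8 of the 10. Emodin arrays and LPS_IFNg arrays shared a slide and scan. The 3 rises were small, at 1.29-fold to 1.50-fold, and they no longer passed with scaling to the spike-ins: under it no gene of the 10 rose and 7 fell.

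**Figure D1:**
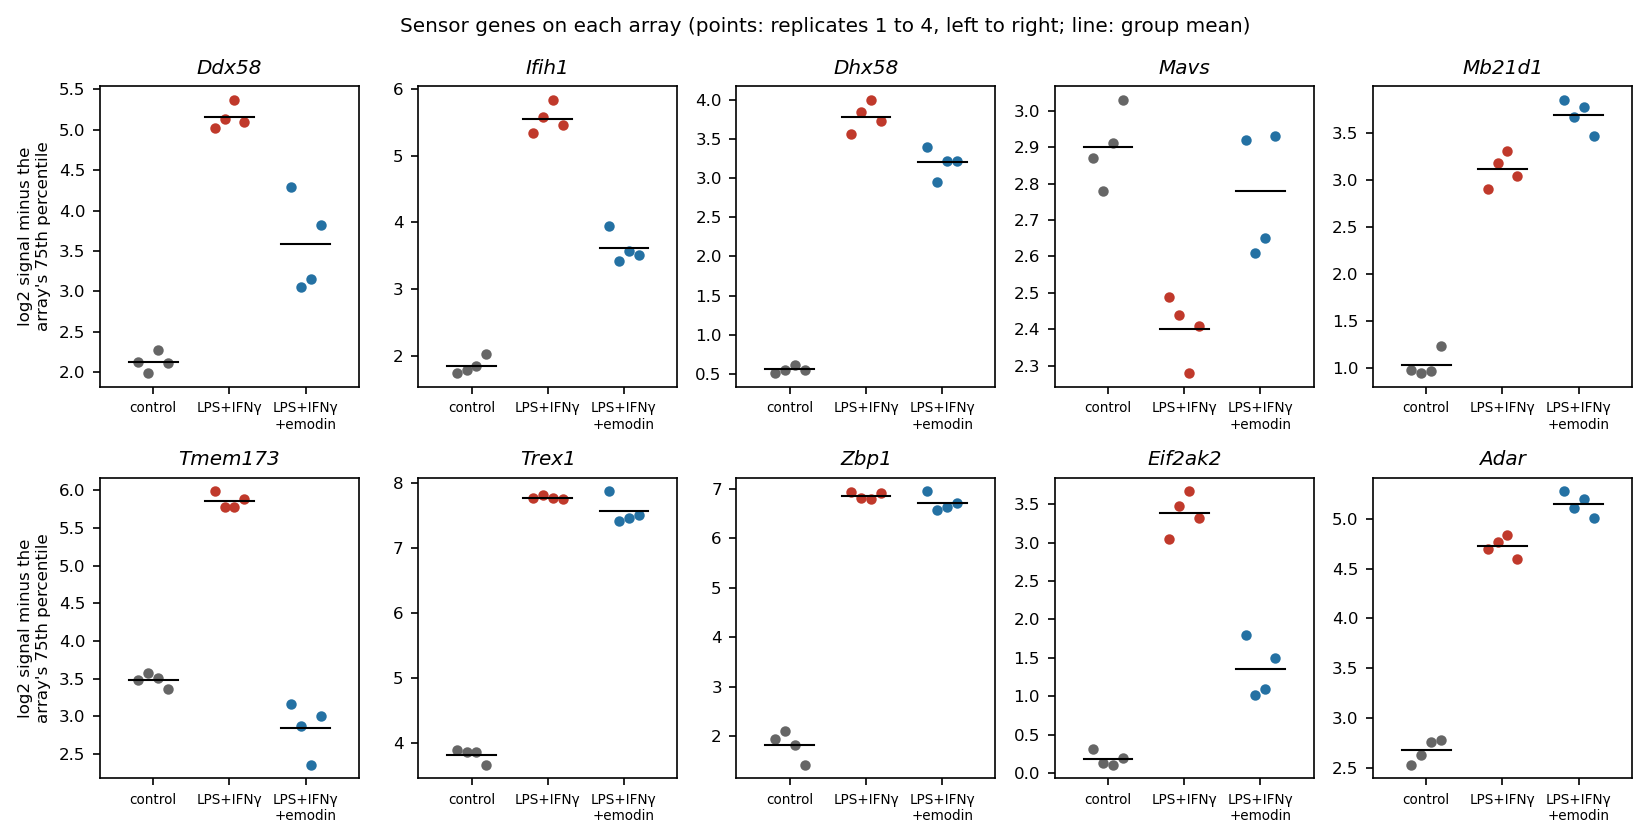
Normalised log2 signal (log2 signal minus the array's 75th percentile, vertical axis, a separate range for each gene) of the 10 genes on the 12 arrays. Each point is 1 array, replicates 1 to 4 from left to right in each group, and the line is the group mean. Tmem173 is the gene whose emodin arrays, at 2.36 to 3.16, lie below its control arrays, at 3.37 to 3.58.

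The RNA helicases came first in the order of the pathway. Ddx58 lay at 2.13, 1.99, 2.28 and 2.11 on control replicates 1 to 4, at 5.02, 5.13, 5.37 and 5.10 with LPS plus IFNγ, and at 4.29, 3.06, 3.15 and 3.82 with emodin. No groups overlapped, and the emodin arrays were the most spread (SD 0.58 against 0.12 and 0.15), with replicates 1 and 4 high. The rise over control was 3.03 ± 0.23 (SE, n = 4 per group), 8.15-fold, with limma's adjusted p = 2.01e-07. Emodin lowered Ddx58 by 2.98-fold (log2 difference -1.57 ± 0.23, adjusted p = 5.51e-05), which left it 2.73-fold above control (1.45 ± 0.23, adjusted p = 8.17e-05). A second Ddx58 probe, measured on 11 arrays, gave 2.64 ± 0.25, -0.94 ± 0.24 and 1.71 ± 0.25 for the same 3 comparisons. With both probes the mean of the emodin group lay between the means of the other groups.

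Ifih1 moved further than Ddx58 in both directions, though the difference between the genes was not tested. It read 1.74, 1.79, 1.85 and 2.02 in controls, 5.34, 5.58, 5.84 and 5.46 in LPS_IFNg and 3.94, 3.42, 3.57 and 3.51 in LPS_IFNg_emodin. Again the 3 groups were separate, with emodin replicate 1 the highest of its group. The changes were 3.71 ± 0.13 with stimulation (13.1-fold, adjusted p = 3.29e-10) and -1.95 ± 0.13 with emodin (3.85-fold lower, adjusted p = 9.56e-08). Its other probe gave 3.80 ± 0.12 and -2.20 ± 0.12.

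Dhx58, whose protein LGP2 lacks the signalling domains of the other 2 helicases, was lowered least among the 5 genes that fell with emodin. Its values were 0.51, 0.55, 0.62 and 0.55 in controls, 3.56, 3.84, 4.00 and 3.73 in LPS_IFNg, and 3.39, 2.95, 3.22 and 3.22 with emodin. The highest emodin array lay just under the lowest LPS_IFNg array, so the groups were separate by a narrow gap. Dhx58 rose by 3.22 ± 0.11 with LPS plus IFNγ (9.34-fold, adjusted p = 2.09e-10), fell by 0.59 ± 0.11 with emodin (1.50-fold, adjusted p = 0.000369) and stayed 6.22-fold above control.

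Mavs, the adaptor shared by RIG-I and MDA5, was the gene that fell with LPS plus IFNγ. Control arrays read 2.87, 2.78, 2.91 and 3.03, LPS_IFNg arrays 2.49, 2.44, 2.28 and 2.41, and emodin arrays 2.92, 2.61, 2.65 and 2.93. The emodin arrays overlapped the controls and lay above all LPS_IFNg arrays. The fall was small, -0.49 ± 0.09 (1.41-fold, adjusted p = 0.000516). With emodin Mavs was 0.37 ± 0.09 higher than without (1.29-fold, adjusted p = 0.00339), and its difference from control did not pass, at -0.12 with a 95% interval of -0.32 to 0.08 (adjusted p = 0.251). That difference passed downward with quantile scaling (-0.27) and with the percentile taken over probes detected on all arrays (-0.32).

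The DNA-sensing pair, enzyme and receptor, moved apart under emodin. Mb21d1 lay at 0.98, 0.95, 0.97 and 1.24 in controls, at 2.90, 3.18, 3.31 and 3.04 with LPS plus IFNγ, and at 3.85, 3.67, 3.77 and 3.46 with emodin. Each emodin array was above each LPS_IFNg array, and each of those above each control. Mb21d1 rose by 2.07 ± 0.11 with stimulation (4.20-fold, adjusted p = 1.10e-08) and was a further 0.58 ± 0.11 higher with emodin (1.50-fold, adjusted p = 0.000543). Its 2 other probes gave 0.24 ± 0.26 (adjusted p = 0.414) and 0.90 ± 0.09 (adjusted p = 2.31e-06) for emodin, so 1 of the 3 did not pass.

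Tmem173, which encodes STING, showed the largest change with emodin among the 10 genes. Its signal was 3.49, 3.58, 3.51 and 3.37 in controls, 5.99, 5.78, 5.78 and 5.89 in LPS_IFNg, and 3.16, 2.87, 2.36 and 3.00 in LPS_IFNg_emodin. The emodin arrays fell below not just the stimulated arrays but the controls as well. LPS plus IFNγ raised Tmem173 by 2.37 ± 0.14 (5.16-fold, adjusted p = 2.98e-08), and emodin changed it by -3.01 ± 0.14 (8.07-fold lower, adjusted p = 7.42e-09). The remaining difference from control was -0.64 ± 0.14 (1.56-fold lower, adjusted p = 0.00129), with 1 probe for the gene. Mb21d1 and Tmem173 had a Pearson r of 0.10 over the 12 arrays, and Mb21d1 and Adar one of 1.00 after rounding, as a description of arrays that share groups and slides. Each r is for the probe that stood for the gene, and another Adar probe, given below, went the opposite way with emodin.

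Trex1 and Zbp1 stayed near their stimulated level. Trex1 read 3.88, 3.85, 3.85 and 3.66 in controls, 7.76, 7.81, 7.77 and 7.75 in LPS_IFNg and 7.87, 7.41, 7.46 and 7.50 with emodin. The LPS_IFNg arrays lay between 7.75 and 7.81, and emodin replicate 1 lay above all of them while the other 3 lay below. The rise was 3.96 ± 0.10 (15.6-fold, adjusted p = 2.17e-11). The emodin difference was -0.21 ± 0.10, with a 95% interval of -0.43 to 0.00 and adjusted p = 0.0702, and it passed at -0.32 (adjusted p = 0.00202) without emodin replicate 1. Quantile scaling (-0.63), normexp background correction (-0.40) and the percentile over detected probes (-0.29) also called it lower.

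Zbp1, the Z-nucleic acid sensor that drives necroptosis through RIPK3, rose more than the other 9 genes. Control arrays lay at 1.93, 2.10, 1.81 and 1.42, LPS_IFNg arrays at 6.93, 6.81, 6.80 and 6.91, and emodin arrays at 6.95, 6.57, 6.64 and 6.72. Both stimulated groups were far from control and overlapped each other. The rise was 5.05 ± 0.13 (33.1-fold, adjusted p = 3.38e-11) and the emodin difference -0.14, with a 95% interval of -0.43 to 0.15 (adjusted p = 0.351). A second probe, on another RefSeq transcript of Zbp1, gave 6.32 ± 0.09 for the rise and -0.75 ± 0.09 for emodin (adjusted p = 1.37e-05), so the probes differed on whether emodin lowered the gene.

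Eif2ak2, the kinase PKR, rose with stimulation and fell with emodin, as the helicases did. It read 0.31, 0.13, 0.11 and 0.19 in controls, 3.05, 3.48, 3.67 and 3.32 with LPS plus IFNγ and 1.80, 1.02, 1.10 and 1.50 with emodin. The groups were separate, and emodin replicates 1 and 4 were again the upper pair. Eif2ak2 rose by 3.20 ± 0.17 (9.17-fold, adjusted p = 1.13e-08), and emodin changed it by -2.03 ± 0.17 (4.08-fold lower, adjusted p = 7.28e-07), to 2.25-fold above control (1.17 ± 0.17, adjusted p = 5.35e-05).

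Adar, which edits adenosine to inosine in double-stranded RNA, had values of 2.53, 2.63, 2.76 and 2.78 in controls, 4.70, 4.77, 4.84 and 4.60 in LPS_IFNg and 5.28, 5.11, 5.20 and 5.01 with emodin. With this probe the 3 groups were separate and the emodin arrays the highest. The rise was 2.05 ± 0.09 (4.14-fold, adjusted p = 1.28e-09), and the emodin difference was 0.42 ± 0.09 (1.34-fold, adjusted p = 0.000807). The other Adar probe, annotated to the same RefSeq transcript, rose by 2.44 ± 0.15 but went the opposite way with emodin, at -0.37 ± 0.15 (adjusted p = 0.0457), and the mean of both gave 0.03. The direction of Adar under emodin therefore differed between its 2 probes.

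**Figure D2:**
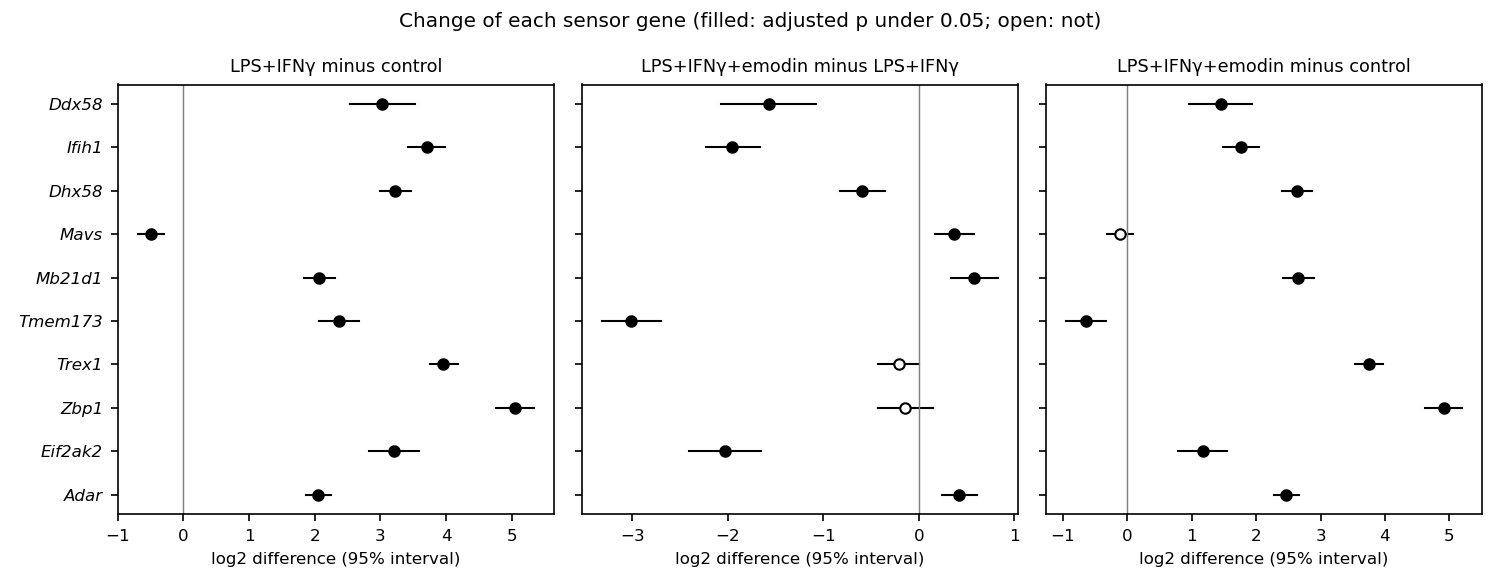
Log2 difference (horizontal axis) of each gene in the 3 comparisons by percentile scaling, with its 95% interval from limma. Filled points passed the adjusted p threshold and open points did not. In the middle panel 5 filled points lie below 0 and 3 above it, and Trex1 and Zbp1 are open.

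Stimulated cells with emodin were also set against unstimulated control. In this comparison 78.0% of all genes tested were called, 39.8% upward and 38.2% downward, and 72.5% did not overlap. Of the 10 genes, 8 were higher than control, Tmem173 was lower and Mavs did not pass, and 9 did not overlap. Folds over control were 30.0 for Zbp1, 13.5 for Trex1, 6.28 for Mb21d1, 6.22 for Dhx58, 5.55 for Adar, 3.39 for Ifih1, 2.73 for Ddx58 and 2.25 for Eif2ak2. The median log2 difference was 2.12 over the 10 genes and 0.02 over all genes. Scaled to all spike-ins or to those well above background, 335 or 203 of all genes were up and 12537 or 12762 down, in place of 5239 and 5029. Zbp1 (2.21 and 1.60) and Trex1 (1.05 and 0.44) stayed above control under both. Ddx58, Ifih1, Eif2ak2, Mavs and Tmem173 were called lower than control under both. Dhx58, Mb21d1 and Adar lay below control under both, but were called lower only with the spike-ins well above background. This comparison shares its control arrays with the first and its emodin arrays with the second, and it spans both slides.

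The directions of the small emodin changes from LPS_IFNg depended too on the scaling. Before scaling, the 75th percentile of signal was 435 to 548 on emodin arrays and 763 to 942 on LPS_IFNg arrays, a mean log2 difference of -0.77, while the 10 spike-in probes differed by -0.19 and the 7 of them that were well above background on all arrays by -0.09. Scaling to these spike-ins moved every gene down by 0.58 or 0.68 on the log2 scale, and over all genes it called 1550 up and 8098 down, or 1222 up and 8625 down, in place of 4748 and 4735. Under either, Mavs (-0.21 and -0.31), Mb21d1 (0.00 and -0.10) and Adar (-0.16 and -0.26) no longer passed, and Zbp1 (-0.73 and -0.83) and Trex1 (-0.80 and -0.90) were called lower. The 5 genes that fell by the percentile scaling fell under both, by 1.17 and 1.27 for Dhx58 at the least and by 3.60 and 3.70 for Tmem173 at the most. The spread among the 10 genes, such as a lower Tmem173 beside a higher Mb21d1, is the same under each of these scalings, because they shift all genes of an array alike.

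**Figure D3:**
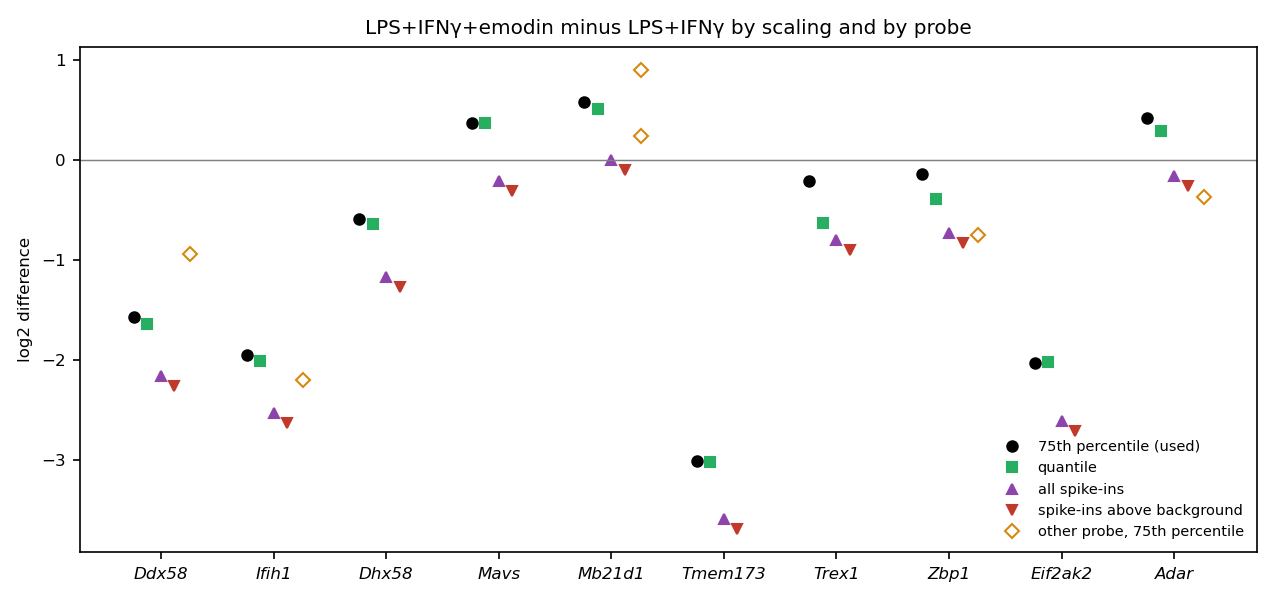
Log2 difference between LPS_IFNg_emodin and LPS_IFNg (vertical axis) for each gene under 4 scalings of the arrays and, as open diamonds, for each other probe of the gene. Ddx58, Ifih1, Dhx58, Tmem173 and Eif2ak2 lie below 0 in all cases shown, while Mavs, Mb21d1 and Adar lie above 0 by percentile or quantile scaling and at or below it by the spike-ins, as does the other Adar probe.

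Other genes of the same pathways were read from 8 lists, of which 172 of 184 genes were tested. Their counts, by percentile scaling unless said otherwise, are to be read against the shares of all genes called up and down, 34.1% and 34.9% with stimulation and 36.1% and 36.0% with emodin. With either spike-in scaling each list had from 0 to 5 genes up against control, with or without emodin. The interferon list, with the interferons, their receptors and factors of their signalling, had 10 of 15 genes up and 2 down with LPS plus IFNγ, with a median log2 difference of 0.98. Stat2, a factor of type I interferon signalling, rose by 3.49 ± 0.08 (adjusted p = 1.32e-11) and its DNA-binding partner Irf9 by 1.60 ± 0.06. Irf1, an early IFNγ target, rose by 5.09 ± 0.09. Ifnb1, interferon beta, was not well above background in control and was at least 7.25-fold higher with stimulation, and Ifng was at least 25.9-fold higher.

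With emodin Stat2 changed by -1.14 ± 0.08 (adjusted p = 1.88e-07), while Irf9 did not pass, at 0.13 ± 0.06 (adjusted p = 0.0895). Ifnb1 was 1.32 ± 0.23 higher with emodin than without (2.49-fold, adjusted p = 0.000238), and Ifng at least 16.5-fold lower. Ifnar2, a subunit of the type I interferon receptor, rose by 1.26 ± 0.08 and Tyk2, a kinase bound to that receptor, changed by -1.19 ± 0.11. The list had 5 of 15 up and 6 down, and 2 up and 9 down with either spike-in scaling.

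The kinases and factors downstream of MAVS and STING had 18 of 26 genes up and 4 down with stimulation (median 0.69). Irf7, the interferon-induced amplifier of interferon transcription, rose by 6.36 ± 0.18 (82.2-fold, adjusted p = 6.97e-11), Tbk1 by 1.11 ± 0.07, and Nfkb1 by 1.80 ± 0.12. Irf3, the factor TBK1 phosphorylates first, changed by -0.40 ± 0.06 (adjusted p = 8.49e-05), and Ikbke, the kinase IKKε, did not pass (0.00 ± 0.09, adjusted p = 0.985). With emodin 8 genes rose and 9 fell, or 1 and 21 with either spike-in scaling. Irf7 fell by 1.94 ± 0.18 (adjusted p = 1.77e-06), Ikbke by 0.99 ± 0.09 and Irf3 by a further 0.35 ± 0.06, whereas the difference of Tbk1 was 0.14 ± 0.07 and did not pass (adjusted p = 0.0893).

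Regulators of RIG-I and MDA5 numbered 15 up and 7 down of 31 with stimulation and 16 up and 12 down with emodin. The 16 and 12 became 4 and 17, or 3 and 17, with the spike-ins. The ubiquitin-like modifier Isg15 rose by 6.26 ± 0.18 and its protease Usp18 by 5.22 ± 0.22, and with emodin Usp18 fell by 2.79 ± 0.22 (adjusted p = 4.19e-07). Trim25, a ubiquitin ligase known for acting on RIG-I, rose by 1.59 ± 0.11 with stimulation and by another 0.92 ± 0.11 with emodin (adjusted p = 1.23e-05). Nlrc5 rose by 4.17 ± 0.17 and Herc6, an ISG15 ligase in mice, by 4.46 ± 0.10, and emodin changed Herc6 by -1.21 ± 0.10.

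Regulators of cGAS and STING had 9 up and 12 down of 26 with stimulation and 8 up and 9 down with emodin (4 and 17, or 4 and 20, with the spike-ins). Enpp1, the ectoenzyme that degrades the cGAS product outside the cell, fell by 2.74 ± 0.13 with LPS plus IFNγ and rose by 2.26 ± 0.13 with emodin (adjusted p = 2.43e-08). Solute carriers linked to the import of cyclic dinucleotides were lower too. Slc46a3 fell by 3.74 ± 0.15, Slc46a1 fell by 2.08 ± 0.22 and Slc19a1 fell by 1.34 ± 0.12. Emodin lowered Slc46a3 and Slc46a1 further, by 1.40 ± 0.15 and 1.98 ± 0.22, while Slc19a1 was 0.34 ± 0.12 higher by percentile scaling (adjusted p = 0.0221), with overlapping arrays. Ulk1, the autophagy kinase, rose by 1.35 ± 0.13 with emodin.

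**Figure D4:**
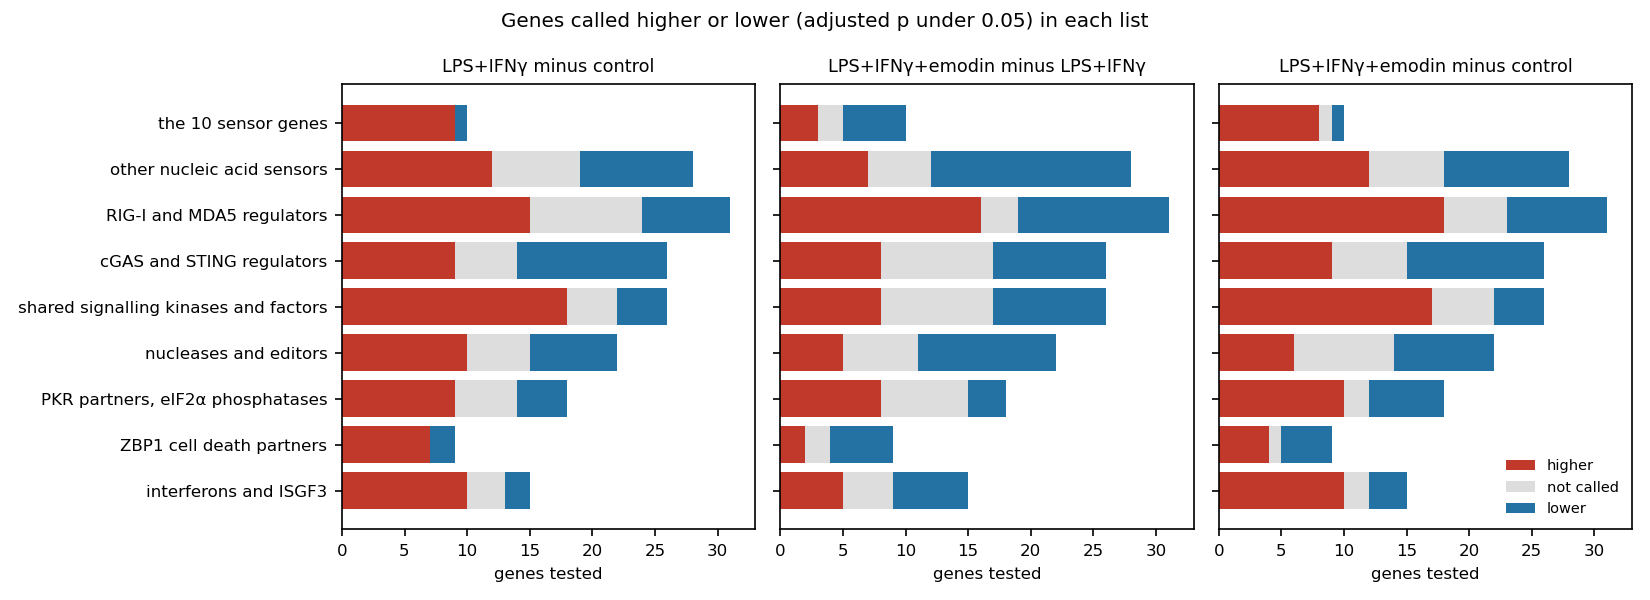
Number of genes (horizontal axis) called higher, lower or not called at an adjusted p under 0.05 in each pathway list, for the 3 comparisons under percentile scaling. In the left panel the 10 sensor genes have 9 higher and 1 lower, and in the middle panel 3 higher, 5 lower and 2 not called.

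Other nucleic acid sensors went both ways, with 12 up and 9 down of 28 after stimulation and a median of 0.11. The DNA-binding Ifi211 rose by 5.55 ± 0.11, Ifi204 by 2.55 ± 0.09 and Mndal by 3.60 ± 0.23, members of 1 gene cluster whose near-identical copies can share probe signal. Aim2, the DNA sensor of the inflammasome, changed by -0.87 ± 0.10 (adjusted p = 6.15e-06) and by another -0.80 ± 0.10 with emodin. Emodin lowered 16 and raised 7 of the 28 (20 and 1, or 21 and 1, with the spike-ins). Mre11a, a subunit of a DNA break sensor, rose by 2.10 ± 0.09, and Zcchc3, a cofactor of cGAS and RIG-I, changed by -2.30 ± 0.15.

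Among nucleases and editors 10 of 22 rose and 7 fell with stimulation, and 5 rose and 11 fell with emodin (1 and 17 with either spike-in scaling). Samhd1, the dNTPase, rose by 3.05 ± 0.15 and fell by 1.56 ± 0.15 with emodin (adjusted p = 2.10e-06). Dnase1l3, a secreted nuclease, was at least 24.0-fold higher with stimulation and changed by -1.70 ± 0.35 with emodin. Adarb1, which encodes the second adenosine deaminase ADAR2, was at least 3.48-fold lower with emodin. The lysosomal exonuclease Pld4 fell by 1.51 ± 0.19 with stimulation.

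Partners of PKR and of the factor it phosphorylates, eIF2α, had 9 up and 4 down of 18 with stimulation and 8 up and 3 down with emodin (4 and 12 with either spike-in scaling). Ppp1r15a, the GADD34 subunit that reverses this phosphorylation, rose by 1.42 ± 0.07 and by a further 1.29 ± 0.07 with emodin (adjusted p = 2.73e-08). Prkra, the PKR activator PACT, fell by 1.06 ± 0.11 with stimulation and had a difference of 0.13 ± 0.11 with emodin (adjusted p = 0.306). Ddit3, a stress-induced transcription factor, rose by 1.22 ± 0.12 with emodin, and the PKR inhibitor Dnajc3 fell by 1.33 ± 0.09.

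The cell death partners of ZBP1 numbered 7 up and 2 down of 9 with stimulation and 2 up and 5 down with emodin (1 and 8 with either spike-in scaling). Mlkl, the pore-forming executioner of necroptosis, rose by 3.56 ± 0.16 and Ripk3, its kinase, by 1.38 ± 0.13. Emodin lowered Mlkl by 0.99 ± 0.16 (adjusted p = 0.000178) and Ripk3 by 2.16 ± 0.13 (adjusted p = 4.33e-08), which put Ripk3 at -0.78 ± 0.13 from control, while Zbp1 itself did not pass with the probe used. The caspase regulator Cflar rose by 3.58 ± 0.17 and had a difference of 0.01 ± 0.17 with emodin (adjusted p = 0.956). Tlr3, a receptor of double-stranded RNA that uses the same partners, was at least 6.09-fold lower with emodin, and its adaptor Ticam1 rose by 1.83 ± 0.10.

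Against control, where 39.8% of all genes were up and 38.2% down, the emodin-treated cells had 10 up and 3 down of the 15 interferon genes, 17 and 4 of the 26 kinases and factors, and 18 and 8 of the 31 RIG-I and MDA5 regulators. The counts were 9 and 11 of 26 for cGAS and STING regulators, 12 and 10 of 28 for other sensors, 6 and 8 of 22 for nucleases and editors, 10 and 6 of 18 for PKR partners, and 4 and 4 of 9 for ZBP1 partners.

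For each gene the 3 other genes with the most similar profile were found by Pearson r of normalised log2 signal over the 12 arrays, a measure that the 3 groups and 2 slides dominate. Ifih1 was closest to Ifi208 (0.999), Ddx58 to Ptx3 (0.996) and Isg20 (0.994), and Eif2ak2 to Plod3 (0.996). Zbp1 was closest to Isg15 (0.999), as was Trex1 to Ifi211, Isg15 and Gbp3 (0.999 each), and Dhx58 to Rsad2, Ptgs2 and Trim30d (0.998 each). Adar was closest to Nfkb2 (0.999) and Mb21d1 to Pgs1 (0.998), genes that also rose with emodin by percentile scaling (0.35 ± 0.07 and 0.67 ± 0.10). For Adar this holds with the probe used, since its other probe fell with emodin. Tmem173 was closest to Lynx1 (0.992), which also lay below control with emodin (-0.54 ± 0.10), and Mavs to Dgka (0.954). Among the 10 genes, Ifih1 and Eif2ak2 had r = 0.99 and Trex1 and Zbp1 r = 1.00 after rounding.

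The promoter letters can be read beside these values. Ddx58, Ifih1 and Eif2ak2, which hold the GAAA repeat as searched, each fell with emodin. Mavs, Mb21d1, Adar and Trex1, without a match to that spacing, rose or did not pass. Adar holds GAAA copies with a single base between them, so the division depends on the spacing searched. The division was seen after the values were known, over 7 genes. It rests too on percentile scaling and on the probes used, since Trex1 and the other Adar probe were called lower in values given above. Genes of similar profile were chosen for following a member over these same arrays, so their direction with emodin was largely set by that choice. They do not test this division, and their values are given as a description. With no match in the window, Isg20 (-1.72 ± 0.23), Gsap (-1.33 ± 0.08), Lacc1 (-1.39 ± 0.11), Fbxw17 (-1.13 ± 0.09), Lrp11 (-2.56 ± 0.12) and Ptgs2 (-1.81 ± 0.28) also fell with emodin. Also without a match, Ptx3 and Stfa3 fell, and Ccne1 and Ifi47 did not pass. By percentile scaling Dgka (0.77 ± 0.09), Gpr132 (0.71 ± 0.14), Pgs1 (0.67 ± 0.10), Nfkb2 (0.35 ± 0.07), Ankfy1, Fbxo42, Lin54, Stk38 and Cnksr3 rose, again without a match. With a match, Ifi208 (-1.93 ± 0.13), Lgals9 (-1.29 ± 0.15) and Plod3 (-1.03 ± 0.09) fell, as did Rsad2, Trim30d, Ifi211 and Gbp3. Isg15, with 3 overlapping matches, fell by 0.45 ± 0.18. The central match of Isg15 is shown for comparison.
Isg15, chr4:156200871-156200900, minus strand: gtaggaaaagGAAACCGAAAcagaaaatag

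Several facts of the arrays touch these results. The macrophage markers Csf1r, Lyz2, Adgre1 and Cd14 were well above background on all 12 arrays, and 10 of 11 macrophage markers were measured, with summed linear levels of 559 to 569 in control, 379 to 437 in LPS_IFNg and 477 to 566 with emodin. Single macrophage markers moved with emodin, in both directions. Timd4, a marker of resident macrophages, was not well above background on any emodin array, with means of -3.88, -1.58 and -5.30 in control, LPS_IFNg and emodin. Gata6, the factor of resident peritoneal macrophages, had means of -0.64, -2.06 and -3.17, and Fcgr1 of 1.37, 2.49 and -0.26. Mrc1 was higher with emodin than in LPS_IFNg, with means of 3.92, 0.99 and 4.24 in the same order. The means of Lyz2, Itgam and Cd14 were also higher with emodin than in LPS_IFNg, and those of Adgre1, Csf1r and Mertk were lower. The mean of the list lay -0.22, -0.64, -0.61 and -0.54 from control on emodin replicates 1 to 4 and between -0.04 and 0.13 on LPS_IFNg arrays, and its part in the results was not tested. The submitters' design text names blood leukocytes instead, and the neutrophil markers, 10 measured, summed to 24.4 to 35.2, 21.9 to 26.4 and 26.9 to 33.2 in the same order, with Ngp at background on every array. These sums were led by Elane and S100a8. The neutrophil markers well above background numbered 7 to 9, 4 and 6 to 7. Their list mean lay -1.26 to -0.98 from control on LPS_IFNg arrays and -0.78 to -0.33 on emodin arrays. Dendritic cell markers summed to 131 to 171, 523 to 563 and 258 to 336, led by Bst2, itself interferon-induced, and Siglech. T and NK cell markers summed to 3.56 to 3.98, 8.41 to 9.65 and 8.38 to 11.7. Of these, Lck had means of -0.59, 2.94 and 2.91, while Cd3e went the other way, at 1.59, 0.41 and 1.03. Mast cell and eosinophil markers summed to 1.44 to 2.32, 0.668 to 1.46 and 0.858 to 1.63. B cell markers summed to 0.856 to 1.98, 0.558 to 1.73 and 0.125 to 0.298, lowest with emodin.

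Mesothelial and fibroblast markers moved with emodin. Their 11 genes summed to 16.9 to 74.1 in control, 70.2 to 134 in LPS_IFNg and 10.8 to 35.2 with emodin, where 5 to 7 were well above background, and Gpm6a, Lrrn4 and Upk3b were not on any stimulated array. These sums were led by Dcn (means of 4.34, 6.02 and 3.95) and Col1a2 (2.97, 4.89 and 1.10). Col1a1 and Wt1 were also higher in LPS_IFNg than in control, and Col3a1 (2.04, 0.16 and -0.73), Krt19 and Msln were lower. On LPS_IFNg replicates 1 to 4 the list mean lay -0.36, -1.26, -0.84 and -0.60 from the control mean, although the sums were higher. On emodin replicates 1 to 4 the list mean lay -2.10, -3.47, -3.25 and -2.41 from the control mean, the same order of arrays as for Ddx58 and Eif2ak2. Its part in their values was not tested.

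Sex-linked genes went against 4 labels. Replicate 3 of both stimulated groups had low Xist and high signal of the Y-linked Eif2s3y and Ddx3y under a female label, while the Y-linked Uty and Kdm5d stayed near the level of the other arrays, and the 2 controls labelled male had Xist signal and none of these Y-linked genes raised. The counts of the 10 genes called (10, 8 and 9 in the 3 comparisons) were equal without replicate 3 of both stimulated groups and without those 2 controls.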

How the data were processed

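Total RNA (200 ng) was labelled with Cy3 and hybridised to 1-colour Agilent arrays, and the submitters' processing notes name Agilent Feature Extraction, version 10.7.3.1, for reading the scans. The deposited scanner files give processed signal intensity for 62976 spots per array, 59305 of them not controls, already background-corrected per the file headers; the authors' later steps are not given in the sources used here. The deposited value table holds log2 values whose centring is not stated. They matched quantile-scaled log2 intensities centred on each probe's median (r of 0.9997 or more), with column medians of -0.0314 to 0.0416, and its control columns 1, 3 and 4 matched the scanner files of controls 4, 1 and 3. Scale, centring and direction were so inferred, and the table served only as an alternative.

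Outlier spots were left out, log2 processed signal was set to each array's 75th percentile over non-control spots, and spots of a probe were averaged. Probes were named by RefSeq accession (GRCm38.p6 tables, 27509 of 55681 probes matched 1 gene) and kept where well above background on all 4 arrays of a group. The kept probe with the highest mean stood for a gene, and other probes are reported. limma 3.58.1 in R 4.3.3 fitted the 3 groups of 4 arrays together (9 residual and 2.49 prior degrees of freedom), with Benjamini-Hochberg adjustment over 13168 genes. SE and 95% intervals are from that fit. A level not well above background in a group gave an "at least" fold, set per array against whichever was higher, the dimmest signal still well above background or the signal measured, and these bounds moved no list median by more than 0.01. The scripts were tested on simulated data. The number of arrays limits the precision, and no label names the animals, so the p-values speak only of the spread among these samples, which may be technical.

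Replicate numbers matched between the stimulated groups, where the deviations of same-numbered arrays correlated at 0.15 to 0.28 and each best with its own number, but not with control (r from -0.19 to 0.14). The main fit did not use this pairing, which entered only as the replicate block among the alternatives. Alternatives covered scaling (quantile, percentile over detected probes, spike-ins), normexp background (on median signal, offset 50), the filter, probe choice, the value table, the replicate block and leaving out arrays. The spike-ins well above background, all spike-in scaling in comparisons with control and the single other probes were added after the data were seen. The 10 genes, the lists and the markers were chosen with earlier results of these data known. Named list genes were those with the largest changes without overlap, up to 4 per list and comparison, and 17 chosen by name whatever their values. Some named genes are not reported here.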

Additional observations from a re-analysis of the deposited data

Results flagged for a closer look

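In 2 of the 30 sets of 4 arrays examined (10 genes in 3 groups), 1 array stood apart from the other 3 by Dixon's ratio of gap to range, past its 95% limit for 4 values, which chance alone passes in about 1 of 20 such sets. Mb21d1 in control had a ratio of 0.877, with replicate 4 at 1.24 and the others at 0.95 to 0.98. Trex1 in control had a ratio of 0.862, with the same replicate at 3.66 and the others at 3.85 to 3.88. Replicate 4 also had the lowest mesothelial and fibroblast sum of the controls, at 16.9. Its part in these values was not tested.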

How the results depend on the processing

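Apart from spike-in scaling, all 10 genes kept their call and direction against control under every alternative run with LPS plus IFNγ, and all but Mavs with emodin. Scaled to all spike-ins and to those well above background, an alternative added for these comparisons after the data were seen, the sign with LPS plus IFNγ turned for Mb21d1 (-0.05, -0.56) and Adar (-0.07, -0.58) and, with the second set, for Tmem173 (-0.26). With emodin against control it turned for Ddx58 (-1.25, -1.86), Ifih1 (-0.94, -1.55), Dhx58 (-0.06, -0.67), Mb21d1 (-0.05, -0.66), Eif2ak2 (-1.53, -2.14) and Adar (-0.23, -0.84). The spike-ins differed between the slides, so slide, labelling and group cannot be told apart in these values. Mavs, not called with emodin against control, passed downward with quantile scaling and the value table (-0.27 each) and the percentile over detected probes (-0.32). For emodin against LPS_IFNg, Ddx58 ranged from -2.26 to -0.94, Ifih1 from -2.63 to -1.84, Dhx58 from -1.27 to -0.50, Tmem173 from -3.70 to -2.85 and Eif2ak2 from -2.71 to -1.85, all called. With all spike-ins, and with those well above background, the sign turned for Mavs (-0.21, -0.31), Mb21d1 (0.00, -0.10) and Adar (-0.16, -0.26), and for Adar with its other probe (-0.37). The shifts under spike-in scaling arise because the 75th percentile changed by -0.77 and the spike-ins by -0.19 or -0.09. The other Adar probe was read by percentile scaling. Adar with the mean of its probes (0.03) and Mb21d1 with 1 other probe (0.24) no longer passed. Zbp1 passed downward under 6 settings (-0.39 to -0.83) and Trex1 under 7 (-0.29 to -0.90), among them without LPS_IFNg_emodin replicate 1 (-0.32). Leaving out each array gave 10, 8 to 9 and 9 of the 10 genes called, and 8643 to 9122, 9089 to 9680 and 9987 to 10340 of all genes. With the replicate block, 10, 8 and 9 of the 10 genes were called, and 9025, 9431 and 10230 of all genes. It changed no call of the 10. The total of genes called in a list stayed within 1.5 times except for nucleases and editors with emodin against control (14, and 22 with all spike-ins), but the spike-ins moved its split into up and down by more. Quantile scaling moved the median of all genes against control to -0.13 and -0.14, the detected-probe percentile to -0.16 and -0.18, and the spike-ins moved it to -0.57 and -0.67 for emodin against LPS_IFNg, to -2.15 and -2.66 for LPS plus IFNγ and to -2.68 and -3.29 for emodin against control. Slide and scan limit both comparisons with control, and dim probes limit folds to bounds.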
